A study of Mus musculus with 18 samples.

Results

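The 34 genes described here are known direct targets of Trp53, the mouse p53 transcription factor. They are named from knowledge of the pathway, with earlier results of these data known, and were taken by symbol from a table of 54532 genes. All 34 were among the 17200 genes tested, those with at least 0.5 FPKM (fragments per kilobase of gene length, scaled to library size) in at least 3 libraries. By role the set holds 8 genes of cell cycle arrest and growth signalling, 14 of cell death, 4 of DNA repair and nucleotide supply, 6 of metabolism and stress, and 2 of feedback and other roles. RNA was sequenced from ES-E14TG2a mouse embryonic stem cells, labelled Ctrlv2, Arf-B or Arf-C and here called lines, at day 0 and at day 8 of differentiation toward pancreas, in 3 libraries per group and 18 in all. From day 0 cells were given activin A (20 ng/mL) with Matrigel, and from day 4 until day 8 retinoic acid and FGF10 (10 ng/mL). The genotype label reads wild type for all 18 libraries, and the making of the Arf lines, or whether each is 1 clone, was not given in the sources used here. The replicates carry numbers without a statement that they were separate cultures, so p-values measure only the spread between these libraries, which may be technical.

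Trp53 is kept low in unstressed cells by Mdm2, a ubiquitin ligase that binds it and marks it for degradation. The p19Arf protein, made from an alternative first exon of Cdkn2a, binds Mdm2 and so frees Trp53, which then activates genes of arrest, death, repair and metabolism, and also Mdm2 and Ppm1d, which restrain it. Embryonic stem cells are known to hold much Trp53 protein and to use it more for leaving the stem cell state than for a lasting cell cycle arrest.

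Trp53 binds DNA as a tetramer at a consensus made of a repeated decamer, and the windows that held a close match to it are printed here because they show which target genes carry such letters beside their start. RefSeq promoter windows (build GRCm38.p6, 250 bases before to 50 after each start) were found for 28 of the 34 genes, not for Pmaip1, Perp, Trp53inp1, Zmat3, Xpc or Rrm2b. Both strands were searched for the Trp53 consensus of 20 bases without a spacer, allowing at most 2 mismatches. A match stood in 4 of the 28 genes (14.3%), against 106 of all 27025 genes with a window (0.392%). With at most 1 mismatch it stood in 3 (10.7%), against 22 of all genes (0.0814%), and the exact decamer, of which a full match is built, stood in 11 (39.3%) against 2582 (9.55%). The matches lay at chr17:29090928-29090947 for Cdkn1a (plus strand, 1 mismatch), chr11:40755462-40755481 for Ccng1 (minus strand, 1 mismatch), chr9:66946296-66946315 for Rps27l (plus strand, 1 mismatch) and chr8:22186003-22186022 for Ckap2 (minus strand, 2 mismatches). Those of Cdkn1a, Ccng1 and Ckap2 lay upstream of the annotated gene, and that of Rps27l inside the gene but outside its exons. Each is shown 5′ to 3′ on its gene's strand with 20 flanking bases on each side, the capitals marking the matched bases.
Cdkn1a: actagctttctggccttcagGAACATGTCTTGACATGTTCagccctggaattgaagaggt
Ccng1: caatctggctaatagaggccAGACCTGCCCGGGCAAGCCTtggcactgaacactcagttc
Rps27l: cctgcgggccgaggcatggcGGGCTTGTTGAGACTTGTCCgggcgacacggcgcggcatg
Ckap2: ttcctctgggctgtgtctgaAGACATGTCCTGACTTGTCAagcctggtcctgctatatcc
A match describes letters only, and whether Trp53 bound there was not measured.

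**Figure D1:**
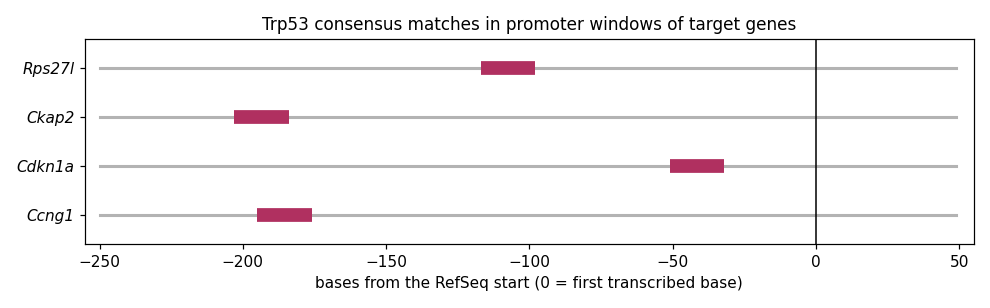
Position of the 4 consensus matches (bars) in the promoter windows (grey lines) of Ccng1, Cdkn1a, Ckap2 and Rps27l, in bases from the RefSeq start. The Cdkn1a match sits closest to its start, at -51 to -32, and the Ckap2 match farthest, at -203 to -184.

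Each library held between 10432590 and 33311220 reads on genes, so that 3 reads on a gene of 1 kb corresponded to 0.093 to 0.282 FPKM. Day 0 libraries held 22945409 to 33311220 and day 8 libraries 10432590 to 22222425, so depth went with day. At day 8 the ranges were 10432590 to 14709983 in Ctrlv2, 17103466 to 22222425 in Arf-B and 14598683 to 15678839 in Arf-C. The part of depth in the results was not tested. Fas and Dram1 reached 0.5 FPKM in 9 libraries, all of day 8, and were counted by as few as 2 reads at day 0. The other 32 genes reached it in all 18. The labelled cell types fit their markers in part. The summed FPKM of 8 stem cell markers (Pou5f1, Sox2, Nanog, Zfp42, Esrrb, Klf4, Dppa5a and Tdgf1), all detected in every group, was at day 0 5077 to 5157 in Ctrlv2, 4256 to 4529 in Arf-B and 4127 to 4902 in Arf-C. By day 8 it was 105 to 136 in Ctrlv2, 645 to 870 in Arf-B and 536 to 897 in Arf-C. Markers of definitive endoderm and posterior foregut (9 genes, none at 0) summed to 2.35 to 4.22 at day 0. At day 8 they summed to 41.0 to 48.8 in Ctrlv2, 26.9 to 29.2 in Arf-B and 28.6 to 31.8 in Arf-C. Markers of primitive and parietal endoderm (6 genes, none at 0) summed at day 0 to 127 to 146 in Ctrlv2, 44.9 to 54.9 in Arf-B and 45.9 to 51.5 in Arf-C. At day 8 their sums were 354 to 467, 106 to 110 and 110 to 119. Markers of mesoderm and smooth muscle (T, Mesp1, Acta2 and Tagln) summed to at most 0.518 at day 0, where Acta2 was listed at 0 in the Arf lines, and at day 8 to 13.9 to 22.3 in Ctrlv2, where Mesp1 was listed at 0, against 2.24 to 2.64 in Arf-B and 1.65 to 2.58 in Arf-C. Neural markers (Sox1, Pax6, Nes and Tubb3, none at 0) summed to 18.03 to 23.2 at day 0, and at day 8 to 20.3 to 22.3 in Ctrlv2, 14.8 to 15.6 in Arf-B and 13.3 to 14.4 in Arf-C. The neural sum hides opposite changes: by day 8 in Ctrlv2 2 rose and 2 fell (all genes: 33.9% and 34.4%). Against Ctrlv2 at day 8, 1 neural marker was higher and 3 lower in each Arf line. Of the 3 mesoderm and smooth muscle markers tested, 1 was then higher and 2 lower in each. Trophoblast markers (5 genes, none at 0) summed to at most 1.24 at day 0 and to 6.59 to 7.52 at day 8. In these bulk libraries fewer cells of a type and less RNA per cell cannot be told apart.

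Over the 8 days of differentiation Ctrlv2 raised 17 of the 34 Trp53 targets and lowered 10. Those that rose included Cdkn1a, Ccng1 and Plk2 of cell cycle arrest and Trp53inp1 and Eda2r of cell death, while Pmaip1, Gdf15, Gadd45a and Tigar fell. The calls are from limma on log2(FPKM + 1) with Benjamini-Hochberg adjustment over all 17200 genes, at an adjusted p under 0.05, and the scale understates changes of low genes. Of all genes tested, 33.9% rose and 34.4% fell in Ctrlv2, against 50% and 29.4% of the targets. The median log2 fold change of the targets was 0.29, beside -0.01 over all genes. Arf-B raised 17 and lowered 11 targets (all genes: 32.9% and 33.8%, median of the targets 0.26), and Arf-C raised 19 and lowered 11 (32.8% and 33.8%, median 0.40). Scaling libraries to the same sum moved the median of all genes from -0.01 to 0.08 in Ctrlv2, from -0.02 to 0.13 in Arf-B and from -0.02 to 0.11 in Arf-C. Under it 21 targets rose and 8 fell in Ctrlv2 (all genes: 38.2% and 29.0%), 22 and 8 in Arf-B (40.7% and 24.8%), and 21 and 8 in Arf-C (39.1% and 25.9%). In every line, 15 targets rose (44.1%, against 23.5% of all genes) and 7 fell (20.6%, against 23.6%). Of the 7, Ei24 lost its call in Ctrlv2, Arf-B and Arf-C under scaling to the same sum (limma adjusted p = 0.132, 0.891 and 0.596). Gadd45a lost its call under that scaling in Arf-B and Arf-C (limma adjusted p = 0.0542 and 0.482). The 15 include Fas and Dram1, which passed the filter only through day 8, where they are high. The rise of these genes is therefore no support, here or in the counts per line.

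**Figure D2:**
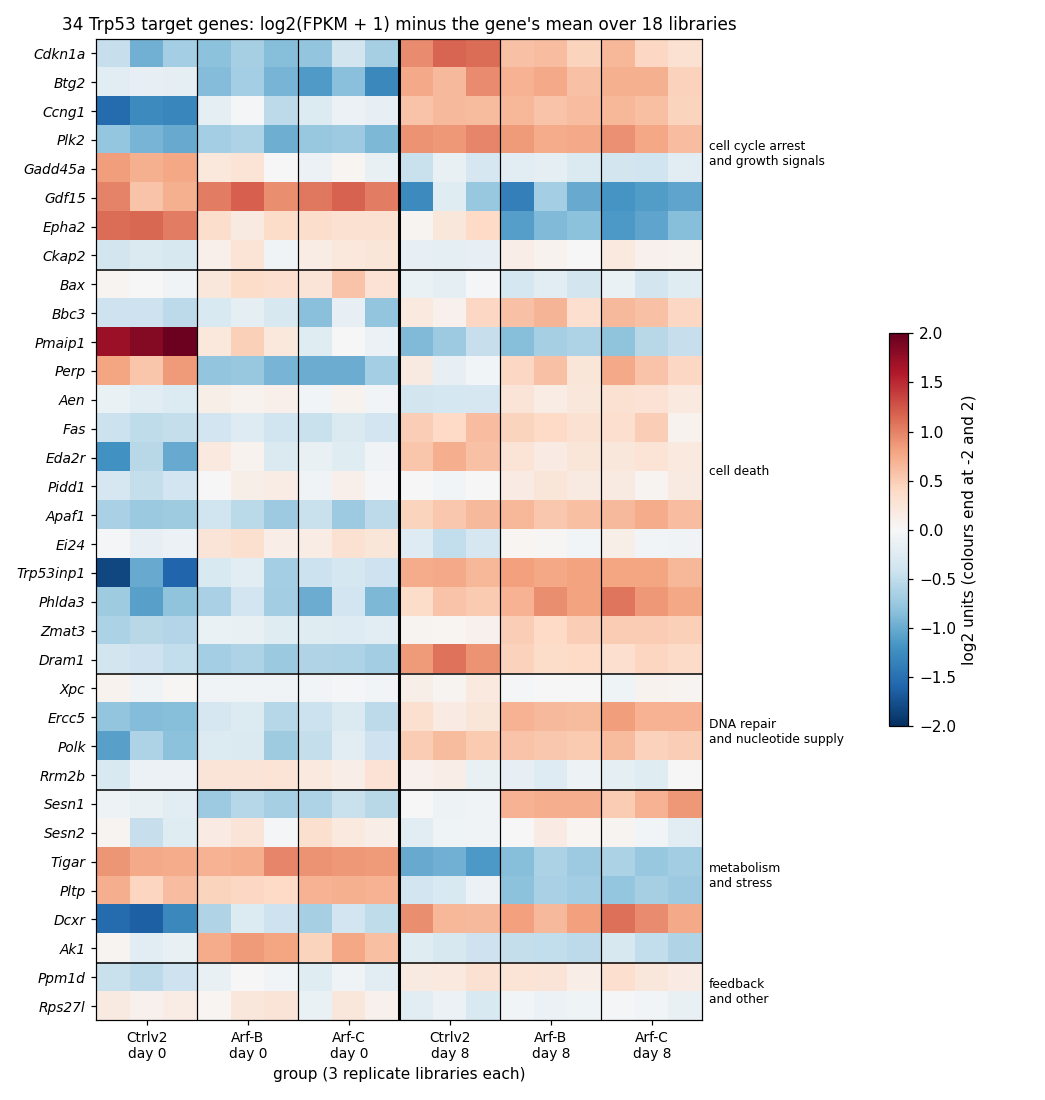
Log2(FPKM + 1) of the 34 targets (vertical, by role) in the 18 libraries (horizontal, 3 per group), each gene minus its own mean, in log2 units from -2 (blue) to 2 (red). Pmaip1 is highest in the 3 day 0 libraries of Ctrlv2, and Perp is lowest in the 6 day 0 libraries of the Arf lines.

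**Figure D3:**
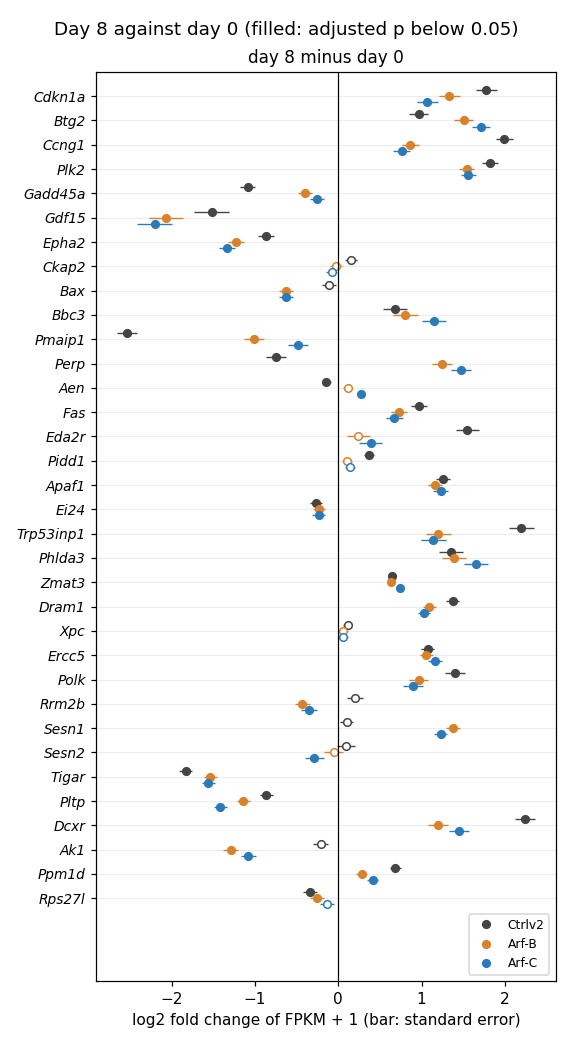
Log2 fold change of FPKM + 1 from day 0 to day 8 for each target (vertical) in Ctrlv2 (grey), Arf-B (orange) and Arf-C (blue), with standard errors, filled where the adjusted p is under 0.05. Perp lies left of 0 in Ctrlv2 (-0.75) and right of 0 in Arf-B (1.24) and Arf-C (1.47).

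At day 0, before differentiation, each Arf line held 16 targets at higher and 7 at lower levels than Ctrlv2. Ccng1 averaged 33.5 ± 3.42 FPKM in Ctrlv2 (SD, n = 3), with 74.8 ± 12.7 in Arf-B and 77.2 ± 4.47 in Arf-C, whereas Pmaip1 averaged 27.8 ± 2.501, 8.91 ± 1.08 and 6.40 ± 0.607. Cdkn1a was not called in either line. The higher targets made up 47.1% of the set in each line, against 19.1% of all genes in Arf-B and 21.2% in Arf-C. The lower targets made up 20.6%, near the 20.0% and 21.5% of all genes. The medians of the targets were 0.29 and 0.17, beside 0.00 over all genes. Both lines were compared with the same 3 Ctrlv2 libraries, here and at day 8, so their values are set side by side and are not independent of each other. The higher targets were Ccng1, Ckap2, Bax, Aen, Eda2r, Pidd1, Ei24, Trp53inp1, Zmat3, Ercc5, Polk, Rrm2b, Sesn2, Dcxr, Ak1 and Ppm1d, and the lower ones Btg2, Gadd45a, Epha2, Pmaip1, Perp, Sesn1 and Dram1.

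At day 8 fewer targets differed from Ctrlv2: Arf-B had 9 higher and 5 lower, and Arf-C 10 and 5. Sesn1 and Aen were among the higher, and Epha2, Cdkn1a and Pltp among the lower. Of all genes tested, the shares were 16.3% higher and 16.9% lower for Arf-B, and 16.8% each way for Arf-C. The targets that were higher made up 26.5% and 29.4% of the set, and those that were lower 14.7% in each line, which is near the share of all genes. The targets had medians of 0.01 (Arf-B) and 0.02 (Arf-C), beside 0.01 over all genes in each comparison. With libraries scaled to the same sum Arf-B had 13 higher and 4 lower and Arf-C 12 and 4, while of all genes 24.9% were then higher and 11.2% lower for Arf-B, and 22.3% and 12.8% for Arf-C. The stem cell, endoderm, mesoderm and neural marker sums given above moved with these comparisons, and their part in the results was not tested.

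**Figure D4:**
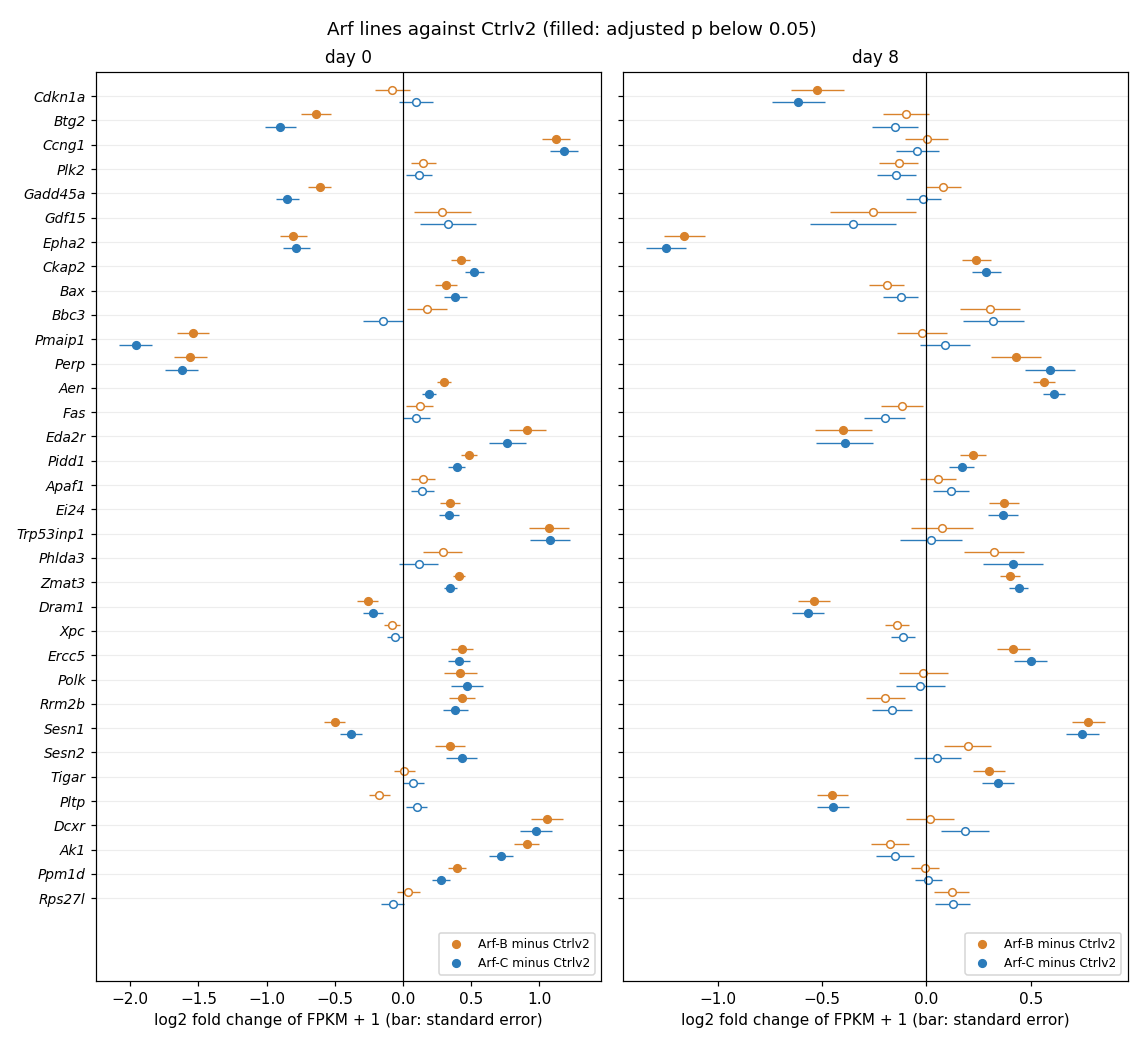
Log2 fold change of FPKM + 1 of each target (vertical) in Arf-B (orange) and Arf-C (blue) against Ctrlv2, at day 0 (left) and day 8 (right), with standard errors, filled where the adjusted p is under 0.05. Ccng1, Trp53inp1 and Dcxr lie near 1 at day 0 and near 0 at day 8, and Epha2 lies left of 0 at both days.

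Among the genes of arrest, Cdkn1a encodes p21, an inhibitor of cyclin-dependent kinases, and spans chr17:29090976-29100727 on the plus strand (mm10). Cdkn1a was at 12.7, 8.68 and 10.7 FPKM at day 0 in Ctrlv2, at 9.62, 10.8 and 9.48 in Arf-B, and at 9.92, 13.6 and 10.9 in Arf-C. It was at 35.3, 41.3 and 39.6 at day 8 in Ctrlv2, at 27.3, 27.8 and 24.7 in Arf-B, and at 28.8, 24.1 and 22.2 in Arf-C. The lines overlapped at day 0, and at day 8 every Arf library lay below every Ctrlv2 library. Cdkn1a rose in all 3 lines, with log2 fold changes of 1.78 (SE 0.127, limma adjusted p = 3.52e-09) in Ctrlv2, then 1.33 in Arf-B and 1.07 in Arf-C. Its difference from Ctrlv2 at day 0 was -0.08 in Arf-B (limma adjusted p = 0.691) and 0.10 in Arf-C (0.593). At day 8 it was -0.52 (limma adjusted p = 0.00484) and -0.61 (0.00152).

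Ccng1, which encodes cyclin G1, a partner of a phosphatase that acts on Mdm2, spans chr11:40748552-40755311 on the minus strand. Ccng1 was at 29.6, 35.9 and 35.1 FPKM at day 0 in Ctrlv2, at 76.6, 86.5 and 61.2 in Arf-B, and at 72.3, 81.1 and 78.2 in Arf-C. By day 8 it was at 131.8, 139 and 137 in Ctrlv2, at 139.9, 132 and 136 in Arf-B, and at 140.4, 134 and 121 in Arf-C. All 6 Arf libraries lay above Ctrlv2 at day 0, and the lines overlapped at day 8. The day 0 log2 difference was 1.12 (SE 0.103, limma adjusted p = 4.48e-07) in Arf-B and 1.18 (2.30e-07) in Arf-C, and the day 8 difference 0.00 (limma adjusted p = 1) and -0.04 (0.783).

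Btg2, an antiproliferative cofactor of mRNA deadenylation, had the opposite difference at day 0. Btg2 was then at 12.04, 12.4 and 12.3 FPKM in Ctrlv2, at 7.26, 8.42 and 6.90 in Arf-B, and at 5.89, 7.47 and 5.14 in Arf-C. At day 8 it was at 24.3, 22.4 and 28.0 in Ctrlv2, at 23.4, 24.4 and 21.6 in Arf-B, and at 23.7, 23.6 and 19.6 in Arf-C. The Arf lines started below Ctrlv2 without overlap (log2 -0.64 and -0.90, limma adjusted p = 0.000294 and 1.05e-05) and overlapped with it at day 8 (-0.10 and -0.15, limma adjusted p = 0.541 and 0.324). Gadd45a, a growth arrest and DNA damage response gene, was at 67.5, 62.2 and 65.0 FPKM at day 0 in Ctrlv2, at 43.7, 45.5 and 37.8 in Arf-B, and at 34.4, 38.7 and 33.8 in Arf-C. It fell to 27.2, 33.6 and 29.5 at day 8 in Ctrlv2, to 31.9, 33.0 and 30.4 in Arf-B, and to 28.7, 28.3 and 32.1 in Arf-C. Gadd45a thus started from unequal levels (log2 -0.61 and -0.85 against Ctrlv2, limma adjusted p = 3.41e-05 and 1.01e-06) and ended with overlapping ones (0.08 and -0.01, limma adjusted p = 0.509 and 0.927). Its fall in Arf-C (-0.25) lost its call without replicate 2 of Arf-C at day 0 (limma adjusted p = 0.0736) or replicate 2 of Arf-C at day 8 (0.0580), and under scaling to the same sum (0.482), and that in Arf-B lost it under the same scaling (-0.18, limma adjusted p = 0.0542).

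Epha2, a receptor tyrosine kinase for ephrins, was lower in the Arf lines at both days. Epha2 was at 67.9, 69.4 and 63.2 FPKM at day 0 in Ctrlv2, at 39.1, 34.7 and 39.8 in Arf-B, and at 39.1, 38.0 and 38.1 in Arf-C. By day 8 it had fallen to 31.8, 36.0 and 40.8 in Ctrlv2, to 13.8, 16.2 and 16.98 in Arf-B, and to 13.3, 14.1 and 16.6 in Arf-C. No Arf library overlapped Ctrlv2 at either day, with log2 differences of -0.80 and -0.78 at day 0 (limma adjusted p = 8.66e-06 and 1.03e-05) and -1.16 and -1.25 at day 8 (2.56e-07 and 1.13e-07). Ckap2, a microtubule-associated protein of the spindle, was the arrest group's other gene with a difference at both days. At day 0 it averaged 27.1 ± 0.640 FPKM in Ctrlv2, with 36.9 ± 4.44 in Arf-B and 39.4 ± 1.44 in Arf-C, and 30.3 ± 0.204, 36.0 ± 1.64 and 37.3 ± 1.87 at day 8. The differences were 0.42 and 0.52 at day 0 (limma adjusted p = 0.000168 and 2.07e-05) and 0.24 and 0.29 at day 8 (0.0149 and 0.00454). That of Arf-B at day 8 lost its call without replicate 1 of Arf-B (limma adjusted p = 0.0637). Plk2, a polo-like kinase, averaged 6.36 to 7.19 FPKM by line at day 0 and 22.6 to 25.0 at day 8. Plk2 rose in each line, by 1.82, 1.54 and 1.56 in Ctrlv2, Arf-B and Arf-C. Gdf15, a secreted TGF-beta family member, went from 9.66 to 12.3 FPKM by line at day 0 to 1.89 to 2.84 at day 8. It fell in each, with log2 values of -1.52, -2.07 and -2.204, and neither Plk2 nor Gdf15 was called against Ctrlv2 at either day.

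**Figure D5:**
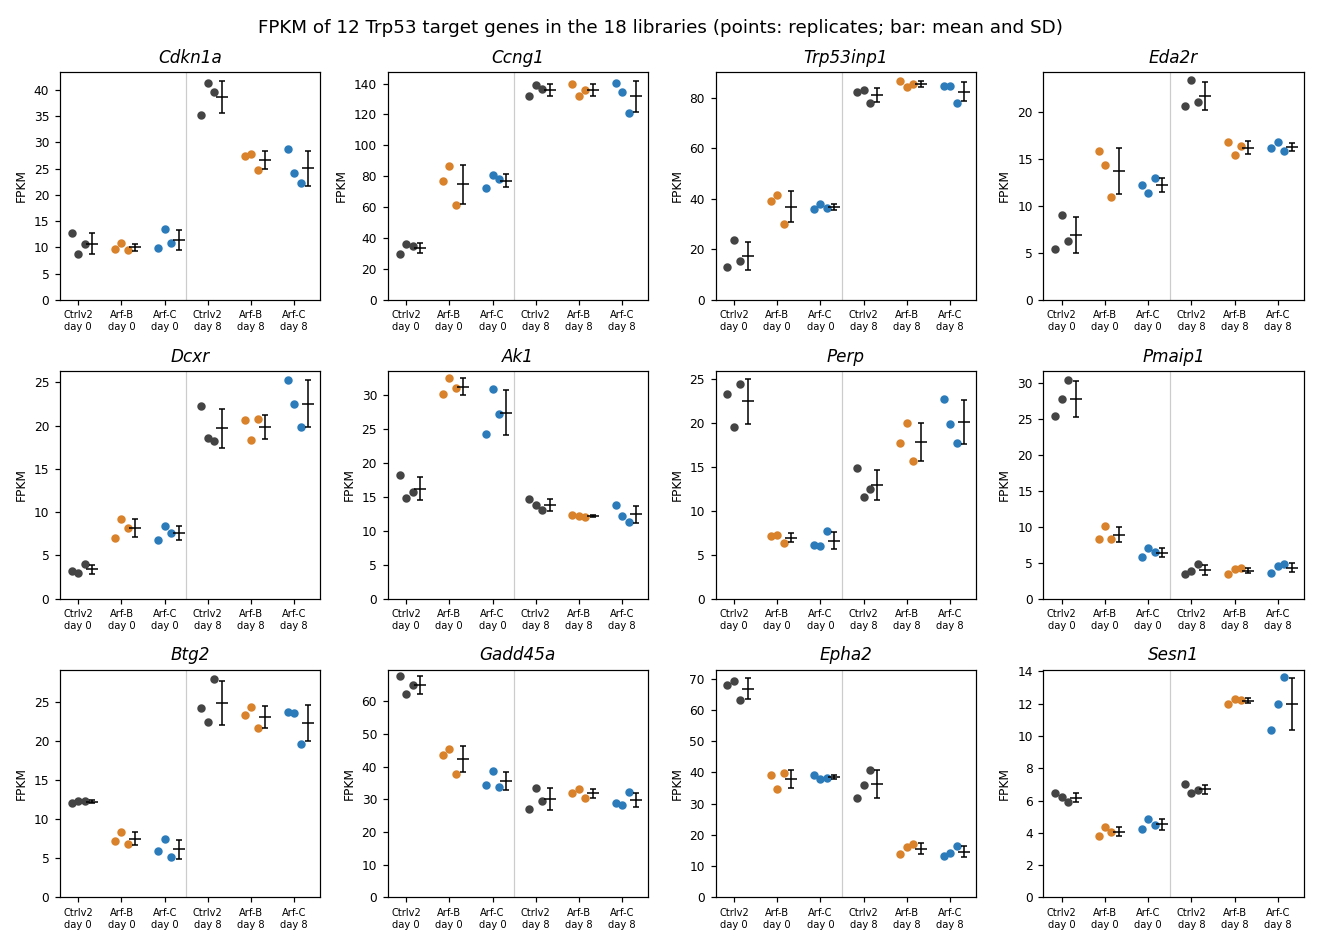
FPKM (vertical) of 12 targets in the 18 libraries (horizontal, by group), with points for replicates and bars for the mean and SD of 3. At day 0 the Arf libraries lie above Ctrlv2 for Ccng1, Trp53inp1, Eda2r, Dcxr and Ak1 and below it for Perp, Pmaip1, Btg2, Gadd45a, Epha2 and Sesn1.

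Among the genes of cell death, the activators Pmaip1 and Perp were lower in the Arf lines at day 0. Pmaip1 (Noxa), a BH3-only protein that acts on the mitochondrial pathway, was then at 25.3, 27.8 and 30.3 FPKM in Ctrlv2, at 8.29, 10.2 and 8.29 in Arf-B, and at 5.78, 6.99 and 6.43 in Arf-C. At day 8 it was at 3.36, 3.84 and 4.81 in Ctrlv2, at 3.44, 4.07 and 4.21 in Arf-B, and at 3.59, 4.48 and 4.85 in Arf-C. Pmaip1 fell in every line toward one overlapping level, from starting levels that did not overlap between Ctrlv2 and the Arf lines. Its differences from Ctrlv2 were -1.54 and -1.96 at day 0 (limma adjusted p = 7.83e-08 and 5.26e-09) and -0.02 and 0.09 at day 8 (0.921 and 0.618). Its fall by day 8 was 2.53 on the log2 scale in Ctrlv2, but 1.01 in Arf-B and 0.48 in Arf-C.

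Perp, a membrane protein of desmosomes that takes part in apoptosis, went in opposite directions. Perp was at 23.3, 19.5 and 24.4 FPKM at day 0 in Ctrlv2, at 7.14, 7.25 and 6.35 in Arf-B, and at 6.08, 6.01 and 7.71 in Arf-C. At day 8 it was at 14.8, 11.5 and 12.5 in Ctrlv2, at 17.7, 19.95 and 15.6 in Arf-B, and at 22.6, 19.8 and 17.6 in Arf-C. The Arf libraries lay below all of Ctrlv2 at day 0 and above all of Ctrlv2 at day 8. Perp fell in Ctrlv2 (log2 -0.75, limma adjusted p = 4.26e-05) and rose in Arf-B (1.24, limma adjusted p = 1.67e-07) and Arf-C (1.47, 2.31e-08). Against Ctrlv2 it differed by -1.56 and -1.62 at day 0 (limma adjusted p = 7.91e-08 and 4.59e-08) and by 0.43 and 0.59 at day 8 (0.0123 and 0.00134). In Arf-B the day 8 call was lost without replicate 2 of Arf-B (limma adjusted p = 0.0652) or replicate 2 of Ctrlv2 (0.0605).

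Trp53inp1 and Eda2r had the day 0 difference of the other sign. Trp53inp1, a stress-induced nuclear protein linked to autophagy and death, was at 13.1, 23.6 and 15.5 FPKM at day 0 in Ctrlv2, at 39.1, 41.6 and 30.1 in Arf-B, and at 36.0, 38.0 and 36.4 in Arf-C. By day 8 it was at 82.3, 83.1 and 77.8 in Ctrlv2, at 86.5, 84.3 and 85.4 in Arf-B, and at 84.5, 84.5 and 78.1 in Arf-C. The Arf libraries lay above Ctrlv2 at day 0 (log2 1.07 and 1.08, limma adjusted p = 3.89e-05 and 3.28e-05), and Arf-C overlapped Ctrlv2 at day 8 (0.02, limma adjusted p = 0.936), while Arf-B lay slightly above it without a call (0.07, limma adjusted p = 0.750). Eda2r, a receptor of the tumour necrosis factor family, was at 5.36, 9.05 and 6.28 FPKM at day 0 in Ctrlv2, at 15.8, 14.4 and 10.98 in Arf-B, and at 12.2, 11.4 and 13.0 in Arf-C. It was at 20.6, 23.4 and 21.1 at day 8 in Ctrlv2, at 16.8, 15.4 and 16.4 in Arf-B, and at 16.1, 16.8 and 15.9 in Arf-C. Eda2r was higher in the Arf lines at day 0 (0.91 and 0.77, limma adjusted p = 7.64e-05 and 0.000323) and lower at day 8 (-0.40 and -0.39, limma adjusted p = 0.0353 and 0.0374), without overlap at either day. The day 8 calls were lost whichever 1 of the compared libraries was left out (limma adjusted p from 0.0507 to 0.116 in Arf-B and from 0.0533 to 0.120 in Arf-C), under scaling to the same sum (0.155 and 0.123), and with no filter (0.0742 and 0.0781).

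The remaining genes of cell death differed less from Ctrlv2 at day 0. At day 8 Aen and Dram1 differed more than Pmaip1, Trp53inp1 and Eda2r. Bax, the pore-forming protein of mitochondria, averaged 124 ± 5.30 FPKM in Ctrlv2 at day 0, with 155 ± 8.50 in Arf-B and 163 ± 20.3 in Arf-C (log2 0.32 and 0.39, limma adjusted p = 0.00672 and 0.00147). At day 8 Bax averaged 100.1 to 114 FPKM by line and was not called (-0.19 and -0.12, limma adjusted p = 0.0923 and 0.281), having fallen in the Arf lines (-0.62 in each), with a value of -0.11 in Ctrlv2 (limma adjusted p = 0.236). Bbc3 (Puma), the other BH3-only gene, was not called against Ctrlv2 at either day and rose in Ctrlv2, Arf-B and Arf-C by 0.68, 0.81 and 1.15. Apaf1, the scaffold of the apoptosome, rose by 1.25, 1.16 and 1.23, also without a call between Ctrlv2 and an Arf line. Zmat3, an RNA-binding zinc finger protein, was higher in the Arf lines at day 0 (0.41 and 0.35) and day 8 (0.40 and 0.44, limma adjusted p = 8.00e-06 and 2.88e-06), and rose in each line by 0.63 to 0.74. Aen, an exonuclease of apoptotic DNA cleavage, was higher at both days, by 0.30 and 0.19 at day 0 and by 0.56 and 0.61 at day 8 (limma adjusted p = 8.10e-07 and 3.05e-07). The day 0 call in Arf-C was lost when only the groups compared were fitted (limma adjusted p = 0.0643). Ei24, an endoplasmic reticulum protein, differed alike at the 2 days, by 0.34 and 0.34 and by 0.37 and 0.37.

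Pidd1, part of the platform that activates caspase 2, was higher in the Arf lines at day 0 (0.49 and 0.39, limma adjusted p = 1.40e-05 and 9.23e-05). At day 8 it was higher by 0.22 in Arf-B (limma adjusted p = 0.0110) and 0.17 in Arf-C (0.0458), the latter call being lost without any 1 of 5 of the 6 libraries compared (0.0725 to 0.135), and with no filter (0.0729), voom (0.148) or only the groups compared (0.0868). Phlda3, an inhibitor of Akt, rose in Ctrlv2, Arf-B and Arf-C by 1.36, 1.39 and 1.66. It was called higher at day 8 in Arf-C (0.41, limma adjusted p = 0.0377), but not without any 1 of 5 of the 6 libraries (0.0556 to 0.142) or with no filter (0.0773). Fas, a death receptor, averaged 0.0693 to 0.166 FPKM by line at day 0, on 2 to 12 reads, and 0.834 to 1.10 at day 8, on 16 to 44 reads. Dram1, a lysosomal membrane protein of autophagy, was at 0.337, 0.299 and 0.234 FPKM at day 0 in Ctrlv2 on 23 to 30 reads, and at 0.03 to 0.135 in the Arf lines on 2 to 11 reads. It was at 2.13, 2.69 and 2.23 at day 8 in Ctrlv2, at 1.38, 1.24 and 1.28 in Arf-B, and at 1.19, 1.32 and 1.26 in Arf-C. Every Arf library lay below every Ctrlv2 library at both days, with log2 differences of -0.26 and -0.22 at day 0 (limma adjusted p = 0.0140 and 0.0301) and -0.54 and -0.57 at day 8 (5.71e-05 and 3.68e-05). The day 0 call was lost in Arf-B without its replicate 3 (limma adjusted p = 0.0546) or replicate 1 of Ctrlv2 (0.0563). In Arf-C it was lost without its replicate 2 or 3 (0.0506 and 0.105) or replicate 1 or 2 of Ctrlv2 (0.102 and 0.0683).

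Of the 4 genes of DNA repair and nucleotide supply, Ercc5 was higher in the Arf lines at both days. Ercc5, the XPG endonuclease of nucleotide excision repair, averaged 4.91 ± 0.173 FPKM in Ctrlv2 at day 0, with 7.01 ± 0.859 in Arf-B and 6.87 ± 0.636 in Arf-C, and 11.4 ± 0.661, 15.6 ± 0.341 and 16.6 ± 1.09 at day 8. It differed by 0.43 and 0.41 at day 0 (limma adjusted p = 0.000426 and 0.000593) and by 0.42 and 0.50 at day 8 (0.000782 and 0.000162). Polk, a translesion DNA polymerase, averaged 3.01, 4.37 and 4.52 FPKM at day 0, with calls of 0.42 in Arf-B (limma adjusted p = 0.0103) and 0.47 in Arf-C (0.00464), and 9.49, 9.38 and 9.29 at day 8 without a call. The Arf-B call was lost without replicate 1 or 2 of Arf-B (0.0532 and 0.0522) or replicate 1 of Ctrlv2 (0.0618), and when only the groups compared were fitted (0.0930). Rrm2b, a subunit of ribonucleotide reductase, was at 0.566, 0.772 and 0.780 FPKM at day 0 in Ctrlv2, at 1.29, 1.30 and 1.32 in Arf-B, and at 1.22, 1.12 and 1.35 in Arf-C. At day 8 it was at 1.04, 1.12 and 0.735 in Ctrlv2, at 0.722, 0.607 and 0.804 in Arf-B, and at 0.695, 0.621 and 0.944 in Arf-C. Rrm2b was higher in the Arf lines at day 0 without overlap (0.44 and 0.39, limma adjusted p = 0.00168 and 0.00359) and fell in them by 0.43 and 0.35, while Ctrlv2 had a log2 value of 0.20 (limma adjusted p = 0.0673). Xpc, which recognises DNA damage, was not called in any comparison, and its group means stayed between 5.89 and 6.89 FPKM.

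Of the 6 genes of metabolism and stress, Sesn1 was the one that the Arf lines raised and Ctrlv2 did not. Sesn1, a sestrin that restrains mTORC1, was at 6.45, 6.19 and 5.91 FPKM at day 0 in Ctrlv2, at 3.83, 4.38 and 4.03 in Arf-B, and at 4.22, 4.88 and 4.47 in Arf-C. At day 8 it was at 7.003, 6.48 and 6.63 in Ctrlv2, at 12.002, 12.3 and 12.2 in Arf-B, and at 10.4, 11.96 and 13.6 in Arf-C. The Arf libraries lay below all of Ctrlv2 at day 0 (log2 -0.50 and -0.38, limma adjusted p = 0.000114 and 0.00104) and above all of it at day 8 (0.77 and 0.75, limma adjusted p = 2.09e-06 and 2.98e-06). Sesn1 rose by 1.38 in Arf-B and 1.23 in Arf-C, and its value in Ctrlv2 was 0.10 (limma adjusted p = 0.267). Its paralogue Sesn2 averaged 59.4 ± 11.05 FPKM in Ctrlv2 at day 0, with 75.1 ± 7.68 in Arf-B and 79.6 ± 5.24 in Arf-C (0.34 and 0.43, limma adjusted p = 0.0229 and 0.00562), and was not called at day 8 (0.20 and 0.05). The Arf-B call was lost without replicate 1 or 2 of Arf-B (limma adjusted p = 0.0632 and 0.101) or replicate 2 or 3 of Ctrlv2 (0.122 and 0.0637), and when only the groups compared were fitted (0.111).

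Dcxr, a reductase of dicarbonyls and L-xylulose, was at 3.20, 2.95 and 4.01 FPKM at day 0 in Ctrlv2, at 7.06, 9.15 and 8.19 in Arf-B, and at 6.77, 8.43 and 7.60 in Arf-C. By day 8 it had risen to 22.3, 18.5 and 18.2 in Ctrlv2, to 20.6, 18.3 and 20.7 in Arf-B, and to 25.2, 22.5 and 19.8 in Arf-C. All Arf libraries lay above Ctrlv2 at day 0 (log2 1.06 and 0.97, limma adjusted p = 3.37e-06 and 7.32e-06), and the lines overlapped at day 8 (0.02 and 0.18, limma adjusted p = 0.933 and 0.249). Ak1, an adenylate kinase, was at 18.2, 14.8 and 15.7 FPKM at day 0 in Ctrlv2, at 30.1, 32.5 and 31.1 in Arf-B, and at 24.2, 30.8 and 27.2 in Arf-C. It was at 14.7, 13.8 and 13.0 at day 8 in Ctrlv2, at 12.3, 12.1 and 11.96 in Arf-B, and at 13.8, 12.1 and 11.2 in Arf-C. Ak1 was higher in the Arf lines at day 0 (0.91 and 0.72, limma adjusted p = 1.17e-06 and 1.20e-05) and fell in them by 1.29 and 1.08, while Ctrlv2 had a value of -0.21 (limma adjusted p = 0.0501).

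Tigar, a fructose bisphosphatase that slows glycolysis, averaged 23.0 to 24.3 FPKM by line at day 0 and fell in each, by 1.83 in Ctrlv2, then 1.54 in Arf-B and 1.56 in Arf-C. Tigar was higher in the Arf lines at day 8, at 7.34 ± 0.605 and 7.59 ± 0.365 against 5.78 ± 0.441 FPKM (0.30 and 0.34, limma adjusted p = 0.00730 and 0.00287). Pltp, a phospholipid transfer protein, fell by 0.86, 1.14 and 1.41 and was lower in the Arf lines at day 8, at 17.3 ± 1.05 and 17.3 ± 0.713 against 24.0 ± 2.48 FPKM (-0.45 and -0.45, limma adjusted p = 0.000289 and 0.000296). Its values are uncertain, since 495 of its 2562 exon bases (19.3%) lie opposite exons of Ctsa, at a mean of 51.8 FPKM, and whether strand was used in counting was not given in the sources used here. Exons of 6 other targets (Cdkn1a, Gadd45a, Bax, Ei24, Rrm2b and Tigar) share bases with genes whose means were at most 0.425 FPKM. Of the last 2 targets, Ppm1d, a phosphatase that turns Trp53 signalling off, averaged 9.73, 13.1 and 12.1 FPKM at day 0 (0.40 and 0.28, limma adjusted p = 0.000197 and 0.00256) and 16.3, 16.2 and 16.4 at day 8 (-0.01 and 0.01, limma adjusted p = 0.950 and 0.940). Rps27l, a paralogue of the ribosomal protein gene Rps27, was the most abundant target, at group means of 179 to 234 FPKM, and was not called against Ctrlv2 at either day.

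Between Arf-B and Arf-C no target passed the test. By limma none of the 34 was called at day 0, where 0.343% of all genes were, or at day 8 (0.0581%). At an unadjusted p under 0.05 limma gave 6 targets at day 0 (Btg2, Gadd45a, Bbc3, Pmaip1, Aen and Pltp) and 0 at day 8, and limma with voom on the reads recovered from the table called 0 at each day. The widest fitted difference at day 0 was that of Pmaip1, 0.42 higher in Arf-B with a 95% interval from 0.17 to 0.67. Without replicate 2 of Arf-C at day 0 Bbc3 was called (log2 0.54, limma adjusted p = 0.0398), its replicates being 9.60, 16.0 and 10.0 FPKM in Arf-C and 14.4, 15.7 and 14.2 in Arf-B.

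The day response itself differed from that of Ctrlv2 in 15 targets in Arf-B (33.5% of all genes) and 19 in Arf-C (38.3%), by limma's contrast of the 2 responses. In Arf-B 6 of these differences were positive and 9 negative (all genes: 17.5% and 16.1%), and in Arf-C 6 and 13 (19.4% and 18.9%). With libraries scaled to the same sum they were 7 and 8 (all genes: 21.2% and 11.8%), and 9 and 12 (21.5% and 15.5%). The medians were -0.21 and -0.25, beside 0.01 and 0.00 over all genes. Perp had the widest difference, 1.99 in Arf-B (SE 0.171, limma adjusted p = 6.46e-07) and 2.22 in Arf-C (1.73e-07), as it fell in Ctrlv2 and rose in the Arf lines. Pmaip1 followed at 1.52 and 2.05 (limma adjusted p = 7.65e-06 and 3.29e-07), having fallen less in the Arf lines, and Sesn1 at 1.28 and 1.13 (7.30e-07 and 1.95e-06), having risen in the Arf lines. Eda2r had the widest negative difference in Arf-B at -1.31 (limma adjusted p = 0.000105) and stood at -1.16 in Arf-C (0.000255), where Ccng1 was at -1.23 (1.13e-05). For Cdkn1a the difference was -0.45 in Arf-B (limma adjusted p = 0.0691) and -0.71 in Arf-C (0.00566).

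Genes upstream of the targets were read from a list of 22 regulators of Trp53, of which 21 were tested and Trp63 was not. Against Ctrlv2 at day 0, 9 were higher and 3 lower in each Arf line (42.9% and 14.3%). The shares of all genes were 19.1% and 20.0% for Arf-B, and 21.2% and 21.5% for Arf-C. At day 8 Arf-B had 3 of each (14.3%), below the 16.3% and 16.9% of all genes. Arf-C then had 2 of each (9.52%), below the 16.8% of all genes each way. Trp53 itself was at 136, 117 and 135 FPKM in Ctrlv2 at day 0, at 101, 111 and 111 in Arf-B, and at 107, 105 and 103 in Arf-C. It was lower in the Arf lines by 0.26 and 0.29 on the log2 scale at day 0, without overlap. Trp53 mRNA fell by 1.63 in Ctrlv2 by day 8, to 38.6, 40.8 and 44.3 FPKM. At day 8 it was at 49.7, 51.6 and 53.4 in Arf-B, all above Ctrlv2. In Arf-C it was at 49.4, 41.1 and 46.2, which overlapped Ctrlv2. The Trp53 protein was not measured. Mdm2, its ubiquitin ligase, was higher at day 0 (0.40 and 0.40) and lower at day 8 (-0.47 and -0.51), and Mdm4, a related inhibitor, was higher at day 0 (0.80 and 0.95) and not called at day 8. Cdkn2a rose in each line, from means of 1.99 to 2.72 to means of 32.9 to 44.1 FPKM, read over the whole gene so that p19Arf and p16Ink4a transcripts are not told apart. The lines overlapped at day 0. At day 8 the Arf libraries (40.1 to 44.7 in Arf-B, 42.6 to 46.3 in Arf-C) lay above those of Ctrlv2 (32.0 to 34.3).

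A list of 15 further Trp53 targets, of which 14 were tested and Trp53cor1 was not, was compared in the same way at day 0. Mdm2 is on this list as well as on that of the regulators. Arf-B had 2 higher and 6 lower (14.3% and 42.9%, against 19.1% and 20.0% of all genes), and Arf-C 3 and 6 (21.4% and 42.9%, against 21.2% and 21.5%). The list had medians of -0.14 and -0.17, and its difference from the 34 targets was not tested. Tnfrsf10b, a death receptor, was at 12.4, 12.6 and 11.5 FPKM in Ctrlv2 at day 0, at 6.61, 5.87 and 5.57 in Arf-B, and at 6.31, 5.87 and 5.99 in Arf-C. The Arf libraries lay below Ctrlv2 then (-0.91 and -0.90) and at day 8 (-1.27 and -1.26), and Plk3, a polo-like kinase, did likewise (-0.76 and -0.76, then -1.71 and -1.51). Psrc1, a spindle protein, was higher at day 0 (0.69 and 0.73). Steap3, a metalloreductase, was lower at day 0 (-0.41 and -0.55) and higher at day 8 (1.10 and 1.03). Of 10 cell cycle genes that are known to be repressed downstream of Cdkn1a, among them Ccnb1, Cdk1 and Plk1, 9 fell in Ctrlv2 and 10 in each Arf line by day 8. The shares of all genes that fell were 34.4%, 33.8% and 33.8%. Against Ctrlv2 at day 0, Arf-B had 4 of the 10 higher and Arf-C 5, with 0 lower by limma in either, and at day 8 each line had 5 higher and 1, Bub1, lower. Of all genes, 19.1% and 21.2% were higher at day 0, and 16.3% and 16.8% at day 8. Plk1, for one, was higher by 0.39 and 0.43 at day 0 and by 0.65 and 0.72 at day 8.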

How the data were processed

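Polyadenylated RNA was sequenced in 18 libraries (6 groups of 3). The authors deposited 1 table of FPKM values for 54532 genes, with coordinates and gene length in bases, which per the submitters' processing notes involved HISAT2, featureCounts, DESeq2 and the mm10 assembly. How reads on several genes and strand were treated was not given in the sources used here. All 413772 FPKM values above 0 gave back whole reads (tolerance 0.001, largest deviation 4.73e-05), which showed the depth, 10432590 to 33311220 reads.

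The 17200 genes reaching 0.5 FPKM in 3 or more libraries were fitted as log2(FPKM + 1) by limma 3.58.1 (R 4.3.3 and statmod 1.5.0, eBayes with trend and robust), 1 coefficient per group over all 18 libraries, adjusted by Benjamini-Hochberg over all genes. The fit was also run on simulated libraries with few changed genes and the same added spread for every gene. Far more genes change in these data, so that run does not show how the fit performs here. FPKM are given by replicate or as mean ± SD. The members, lists and tests were chosen with earlier results of these data known, so no pattern is independent support. Genes were named by rule: Cdkn1a in each comparison, and the called targets with the widest change. The rule took up to 8 per direction that both Arf lines shared against Ctrlv2, at each day. It took up to 6 per direction between days in Ctrlv2, and up to 4 for the difference in day response. The other targets are accounted for, and Rrm2b, and Bbc3 at day 0, are given by replicate though outside the rule. Aen, Zmat3 and Ei24 are inside it but are given by log2 fold change alone. Genes of the wider lists were picked after their values were seen. No genome sequence was used, so the wider search planned around starts was replaced by RefSeq windows. Alternatives were 0.1 as the pseudocount, a filter on means of 1 FPKM or none, 2 other scalings, a replicate block, voom, fitting only the groups compared, and leaving out each library. Figures were drawn with matplotlib 3.10.9 in Python 3.11.15.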

Additional observations from a re-analysis of the deposited data

Results flagged for a closer look

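The results here are the targets whose change from day 0 to day 8 differed between an Arf line and Ctrlv2 by limma's contrast of the 2 day responses, at an adjusted p under 0.05. Values are that difference on the log2(FPKM + 1) scale, Arf line minus Ctrlv2, and both lines were set against the same 6 Ctrlv2 libraries.

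In Arf-B the response was more positive for Perp (1.99), Pmaip1 (1.52), Sesn1 (1.28), Gadd45a (0.69), Btg2 (0.54) and Aen (0.26). It was more negative for Eda2r (-1.31), Ccng1 (-1.12), Ak1 (-1.08), Dcxr (-1.04), Trp53inp1 (-1.0), Rrm2b (-0.63), Bax (-0.51), Ppm1d (-0.40) and Pidd1 (-0.26). Of these, that of Pidd1 was lost when any of 7 single libraries was left out (limma adjusted p from 0.0503 to 0.0640), under scaling to the same sum (0.0873) and with voom (0.0529).

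In Arf-C the response was more positive for Perp (2.22), Pmaip1 (2.05), Sesn1 (1.13), Gadd45a (0.84), Btg2 (0.75) and Aen (0.42). It was more negative for Ccng1 (-1.23), Eda2r (-1.16), Trp53inp1 (-1.06), Ak1 (-0.87), Dcxr (-0.79), Cdkn1a (-0.71), Rrm2b (-0.55), Pltp (-0.55), Bax (-0.51), Polk (-0.50), Epha2 (-0.47), Dram1 (-0.35) and Ppm1d (-0.27). Those of Polk, Ppm1d and Dram1 were lost when single libraries were left out (limma adjusted p from 0.0559 to 0.0755, from 0.0589 to 0.0743 and 0.05004). With no filter Polk (0.0604) and Ppm1d (0.0552) were lost, as was Polk under scaling to the same sum (0.0550) and Ppm1d with voom (0.0536). The direction of Dram1 rests on the pseudocount of 1, since its difference was 0.0699 with a pseudocount of 0.1 (limma adjusted p = 0.886) and 0.53 with voom (0.431).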

How the results depend on the processing

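The targets gave 194 calls over the comparisons. Of these 174 held whichever 1 library was left out, and 20 were lost at least once. Scaling to the same sum lost 12 and turned none, no filter lost 7, fitting only the groups compared lost 5, voom lost 4, and median-ratio factors lost none. The filter on means of 1 FPKM tested only 31 of the 34 targets. It kept the 177 calls that could be checked, and the rest could not be. The difference in day response of Dram1 in Arf-C (-0.35) turned to 0.0699 with a pseudocount of 0.1 (adjusted p = 0.886) and to 0.53 with voom (0.431). Its day 0 values rest on 2 to 30 reads. Leaving out 1 library gave 0 to 1 targets called between Arf-B and Arf-C at day 0. Allowing 1 mismatch left 3 of the 4 consensus matches, and the wider search around starts was not run, for want of a genome sequence.

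Replicate numbers showed no clear pairing of the libraries, though low correlations cannot show that no culture or batch was shared. The correlation of deviations between same-numbered libraries averaged 0.00582 over 45 pairs (from -0.251 to 0.203, 3 over 0.1), and 8 of 18 libraries correlated best with their own number. Between libraries of different numbers it averaged -0.00289 over 90 pairs (from -0.211 to 0.218, 4 over 0.1). With the replicate block, the counts were 9 in place of 10 targets higher in Arf-C at day 8 and 16 in place of 15 differences in day response in Arf-B. Pidd1 in Arf-C at day 8 was the 1 call lost (adjusted p = 0.0621).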
